A study of Mus musculus with 4 samples.

Results

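The genes described here are 10 members of the MHC class I antigen presentation pathway and of the immunoproteasome: H2-K1, H2-D1, B2m, Tap1, Tap2, Tapbp, Psmb8, Psmb9, Psmb10 and Nlrc5. They were chosen by name, as the array probes whose gene name in the scanner files is one of these symbols, and are 10 of the 24538 gene names that had a probe well above background on at least 1 array. The samples were Sca-1+ cardiac mesenchymal progenitors (CMPs), cultured from the hearts of adult C57BL/6 mice in a medium with 10% FBS and 40 ng/ml bFGF by the labels. The CMP control was untreated and taken at day 0, and the cells transduced with Oct4, Sox2, Klf4 and c-Myc (OSKM-CMPs) were taken at days 4, 6 and 8. By the study's methods the 4 factors were carried by Sendai virus and the OSKM-CMPs moved to a reprogramming medium, so the factors, the virus, the medium and the time in culture cannot be told apart in any difference below.

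Almost every nucleated cell can show peptides from its own proteins to CD8 T cells on MHC class I molecules, which are made of a polymorphic heavy chain and the light chain β2-microglobulin. The proteasome cuts the peptides, the TAP transporter brings them into the endoplasmic reticulum and tapasin helps to load them. In cells exposed to interferon, new proteasomes take up the immunoproteasome subunits Psmb8, Psmb9 and Psmb10, and the transactivator Nlrc5 acts on the promoters of many genes of the pathway.

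One single-color Agilent array was made from 250 ng of labeled RNA per condition, and all 4 arrays were read in 1 scan. With 1 array per condition there is no replicate check of any difference and no test between conditions. The ± given with a log2 change is 1 SD from the error model of the scanner software, which covers the measurement of spots within an array and not the spread between cultures. Signals are processed Cy3 intensities, and log2 changes are relative to the 75th percentile of each array, which was a signal of 388.5 to 410.9. Of the 55675 probes, 56.6% to 59.6% rose well above background by array, and no spot was saturated. Signals of different probes depend on the probe, so levels were compared only within a gene, and fewer expressing cells cannot be told apart from less RNA per cell.

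All 10 members were higher than in the CMP control on each of the 3 days, and each change at day 8 was over 2 SD. The median of the members' log2 changes was 1.41, 1.69 and 1.62 on days 4, 6 and 8, beside a median over all genes of 0.00, -0.04 and -0.01. At day 4, 6 of the 10 members were at least 2-fold higher than in the control, and 11.1% of all genes were. At day 6, 7 members and 12% of all genes were, and at day 8, 7 members and 14.3% of all genes were. No member was at least 2-fold lower on any day, whereas 8.68%, 10.8% and 10.5% of all genes were lower by that much at days 4, 6 and 8. The 13 probes of the members covered 32 spots with no outlier flag, and the 12 probes used were well above background on all 4 arrays.

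**Figure D1:**
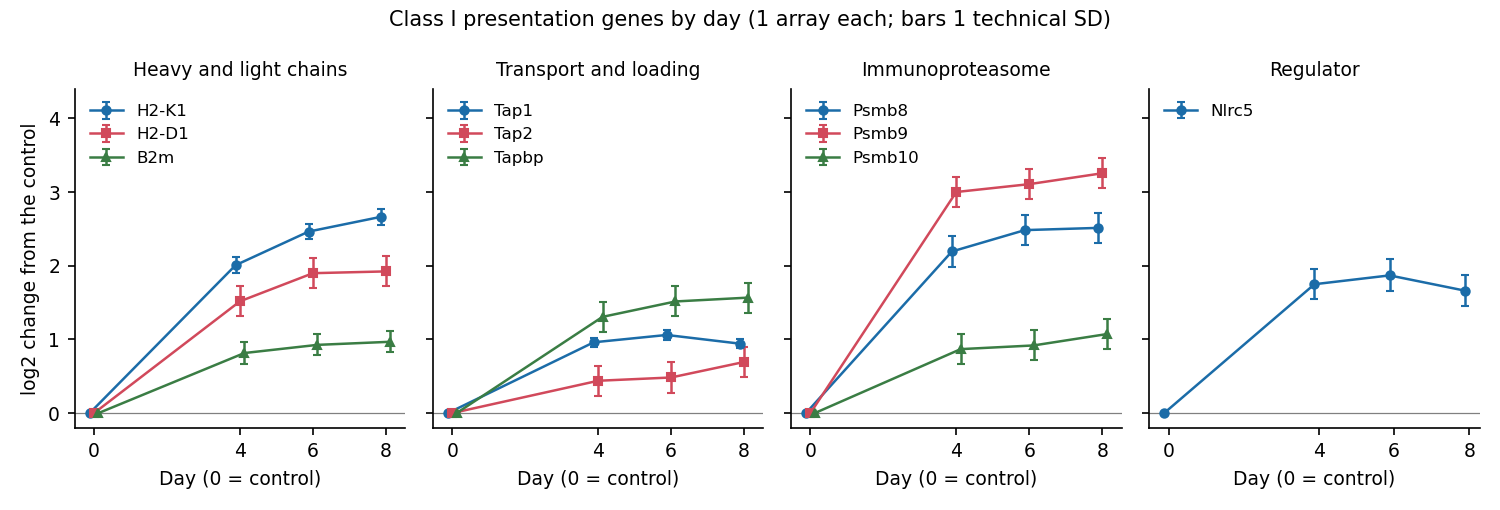
Log2 change from the CMP control (vertical axis) by day (horizontal axis, the control at 0) for the 10 members in 4 panels by role, with 1 array per day and bars of 1 technical SD. All lines lie above 0 from day 4 on, with Psmb9 the highest at 3.26 and Tap2 the lowest at 0.69 at day 8. Each line had reached at least 60% of its day 8 value by day 4.

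Among the heavy chains, H2-K1 had the larger change. H2-K1 encodes the K heavy chain, a class I molecule that presents peptides to CD8 T cells. Its mean signal over both probes was 7331 in the CMP control, then 29432 on day 4, 42218 on day 6 and 49108 on day 8. The log2 changes were 2.01, 2.46 and 2.67 (each ± 0.11), so that the level at day 8 was 6.35-fold that of the control. By the mean of the probes, H2-K1 was the only member whose level still differed between day 4 and day 6 by over 2 SD, at 0.46 ± 0.11 on the log2 scale. The brighter of the Nlrc5 probes alone also differed between these days, by 0.67 ± 0.20.

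The brighter H2-K1 probe, at chr17:34133055-34133114 on mm9 and on the minus strand, was spotted 10 times. Its spots lay between 9069 and 10668 in the control, between 43303 and 48727 at day 4, between 62798 and 71143 at day 6, and between 66610 and 79241 at day 8. The spots of the control did not overlap those of any later day, while the spots of days 6 and 8 overlapped. The other H2-K1 probe, at chr17:34133984-34134043, gave 5381, 18942, 26788 and 32041 in the same order, a log2 change of 2.50 ± 0.20 at day 8 beside 2.84 ± 0.06 for the first probe. Both probes increased from each array to the next. This second probe holds an open reading frame and is shown because class I heavy chains are near-identical in many stretches, so its signal may include other heavy chains and its gene is uncertain.
H2-K1 probe: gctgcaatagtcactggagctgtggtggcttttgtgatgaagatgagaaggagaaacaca

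H2-D1 encodes the D heavy chain, the other classical class I molecule of this strain. Its 1 probe, at chr17:35403886-35403945 on mm9, gave signals of 8848 in the CMP control, then 25281 on day 4, 34453 on day 6 and 35422 on day 8. The log2 changes were 1.52, 1.90 and 1.92 (each ± 0.20), with no further step of over 2 SD after day 4. The same uncertainty about near-identical copies holds for H2-D1. The change of H2-K1 was larger than that of H2-D1 by 0.74 ± 0.23 at day 8.

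B2m encodes β2-microglobulin, the light chain shared by all class I molecules, and its signal was high from the start. The probe, at chr2:121978401-121978460, was spotted on each array in 2 places, and its mean signal was 63352 in the CMP control, then 111248 on day 4, 125656 on day 6 and 130802 on day 8. The spots ranged from 63304 to 63400 in the control and from 108560 to 135133 over the later arrays, with no overlap. The log2 changes were 0.82, 0.93 and 0.97 on days 4, 6 and 8 (each ± 0.14), just under 2-fold. With quantile normalization in place of the 75th percentile it was 1.28 at day 8, over 2-fold. The change of H2-K1 was larger than that of B2m by 1.70 ± 0.18 at day 8.

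The sequences before the start sites of these 3 genes are shown because they hold, in a short stretch, letters known to bind the factors of interferon and NF-kB signaling and those through which Nlrc5 acts. They are RefSeq windows on GRCm38.p6, limited to the 250 bases before the start site, and capitals mark matches on either strand. The H2-K1 stretch is chr17:34000348-34000597 on the minus strand, that of H2-D1 is chr17:35262844-35263093 on the plus strand, and that of B2m is chr2:122147437-122147686 on the plus strand.
H2-K1: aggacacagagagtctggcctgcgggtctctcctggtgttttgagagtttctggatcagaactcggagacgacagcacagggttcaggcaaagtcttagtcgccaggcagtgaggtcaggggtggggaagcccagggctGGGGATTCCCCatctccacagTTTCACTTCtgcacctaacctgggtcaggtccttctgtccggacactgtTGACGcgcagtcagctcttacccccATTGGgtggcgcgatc
H2-D1: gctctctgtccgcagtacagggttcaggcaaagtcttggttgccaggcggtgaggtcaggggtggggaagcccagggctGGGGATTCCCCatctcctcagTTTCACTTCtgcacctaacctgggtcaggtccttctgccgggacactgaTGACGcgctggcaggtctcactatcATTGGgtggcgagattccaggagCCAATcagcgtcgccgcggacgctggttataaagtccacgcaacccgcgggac
B2m: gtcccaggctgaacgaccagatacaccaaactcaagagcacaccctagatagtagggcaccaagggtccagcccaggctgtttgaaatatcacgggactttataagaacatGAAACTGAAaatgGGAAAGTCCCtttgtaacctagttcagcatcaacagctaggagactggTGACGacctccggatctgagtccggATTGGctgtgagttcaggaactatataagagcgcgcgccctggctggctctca

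In H2-K1 and H2-D1 the capitals read, from left to right, the NF-kB motif (2 overlapping matches), an interferon-stimulated response element (ISRE), the core of a CRE and the CCAAT box on the opposite strand. A further CCAAT box is printed for H2-D1 and lies just after the H2-K1 start site used here. B2m holds the ISRE first and the NF-kB motif second. The aligned part of the H2-K1 and H2-D1 stretches was 91.0% identical, at 161 identical bases and 16 mismatches. The ISRE core GAAANNGAA was found in the 300-base window of 1 member (B2m) of the 8 with a RefSeq window, and in 8.56% of 32851 windows of all genes. A second lettering of that core, GAANNGAAA, which was added after the sequences had been read, was found in H2-K1 and H2-D1 and in 7.52% of all windows. The NF-kB motif was found in H2-K1, H2-D1 and B2m and in 8.46% of all windows, and the interferon-gamma-activated (GAS) core TTCNNNGAA in Psmb8 and in 8.30%. The CRE core TGACG was in the windows of 5 members and 20.8% of all, and the CCAAT box in those of 6 members and 37.4% of all. The windows of Psmb9 and Tap1 overlap, so the same CRE core and the same CCAAT box were counted for both. These members are thus not separate cases, and neither are the much alike H2-K1 and H2-D1. A member was counted if any of its windows matched, whereas the share of all is per window. A match describes the letters in a window and does not show a bound site.

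The transporter subunits changed less than the heavy chains. Tap1 and Tap2 form the pump that moves peptides into the endoplasmic reticulum. The Tap1 probe, at chr17:34330854-34330913, was spotted 10 times and gave mean signals of 410 in the CMP control, then 796 on day 4, 892 on day 6 and 831 on day 8. Its spots lay between 384 and 441 in the control, between 773 and 831 at day 4, between 851 and 925 at day 6 and between 795 and 856 at day 8. The control spots stood apart from all later ones, and the spots of days 4 and 8 overlapped. The log2 changes of Tap1 were 0.96, 1.06 and 0.94 (each ± 0.06), so that only the day 6 value was over 2-fold.

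The Tap2 probe, at chr17:34353116-34353175, gave 5659 in the CMP control, then 7655 on day 4, 8259 on day 6 and 9661 on day 8. The log2 changes were 0.44, 0.48 and 0.69 (each ± 0.20), and Tap2 had the smallest change of the 10 members at each day. Tapbp encodes tapasin, which holds empty class I molecules to the transporter. Its probe, at chr17:34065963-34066022, gave 3581, 8838, 10687 and 11204 in the same order, and the log2 changes were 1.31, 1.52 and 1.57 (each ± 0.20). Tapbp thus lay nearly 3-fold above the control at day 8 (2.96-fold), and its 3 later arrays stood well apart from the control.

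**Figure D2:**
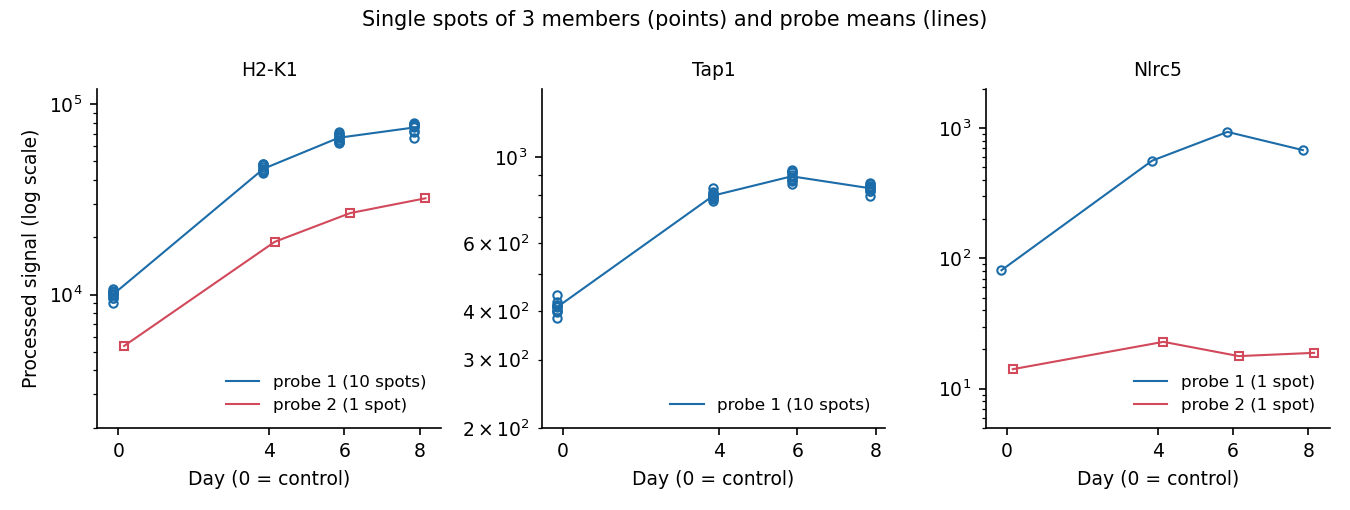
Processed signal on a log axis (vertical) by day (horizontal, the control at 0) for every spot of H2-K1, Tap1 and Nlrc5, with points for spots and lines for the mean of each probe. The 10 spots of Tap1 lie between 384 and 441 in the control and between 773 and 925 later, and the second Nlrc5 probe stays between 14.1 and 22.9 while the first goes from 81.1 to 937.

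Of the 10 members, the immunoproteasome subunit Psmb9 had the largest change at day 8, at the mean of the probes kept. Psmb9 (LMP2) and Psmb8 (LMP7) are catalytic subunits of the immunoproteasome that are coded within the MHC region, and Psmb10 (MECL-1) is the third and lies on another chromosome. The Psmb9 probe, at chr17:34319174-34319233 on the minus strand, gave signals of 356 in the CMP control, then 2843 on day 4, 3201 on day 6 and 3586 on day 8. The log2 changes were 3.00, 3.11 and 3.26 (each ± 0.20), or 9.55-fold at day 8, and day 4 already held 92.2% of the day 8 change on the log2 scale. Another Psmb9 probe, at chr17:34322762-34322821, did not stand well above background on any of the 4 arrays, at signals of 3.74 to 9.90, and was left out. With that probe in the mean, the change of Psmb9 was 2.19 at day 8, under those of H2-K1 and Psmb8.

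The Psmb8 probe, at chr17:34337771-34337830, gave 888 in the CMP control, then 4054 on day 4, 5185 on day 6 and 5353 on day 8. The log2 changes were 2.19, 2.48 and 2.51 (each ± 0.20), or 5.71-fold at day 8. The Psmb10 probe, at chr8:108459677-108459736, had a high signal in the control, at 14970, and gave 27271, 29535 and 33219 on days 4, 6 and 8. Its log2 changes were 0.87, 0.92 and 1.07 (each ± 0.20), the smallest of the 3 subunits. The difference between the changes of Psmb9 and Psmb10 was 2.18 ± 0.29 at day 8. The probes of Psmb9, Psmb8 and Tap1 are shown because they hold open reading frames and mark the part of each transcript that was measured.
Psmb9 probe: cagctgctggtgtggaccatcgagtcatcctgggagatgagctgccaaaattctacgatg
Psmb8 probe: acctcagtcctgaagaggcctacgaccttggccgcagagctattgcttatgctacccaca
Tap1 probe: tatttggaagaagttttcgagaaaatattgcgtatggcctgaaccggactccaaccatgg

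Each immunoproteasome subunit takes the place of a constitutive one when a new proteasome is built: Psmb8 that of Psmb5, Psmb9 that of Psmb6 and Psmb10 that of Psmb7. The constitutive subunits had no change of 2-fold and lay at or under the control. Psmb5 changed by -0.42, -0.49 and -0.52 (± 0.14 each), Psmb6 by -0.01, -0.14 and -0.34 (± 0.20 each) and Psmb7 by -0.43, -0.54 and -0.61 (± 0.20 each) at days 4, 6 and 8. At day 8 the change of Psmb8 was above that of Psmb5 by 3.04 ± 0.25, that of Psmb9 above Psmb6 by 3.59 ± 0.29 and that of Psmb10 above Psmb7 by 1.68 ± 0.29. At day 4 these differences were 2.61 ± 0.25, 3.01 ± 0.29 and 1.30 ± 0.29. They were thus present at day 4 and differed from 0 by over 2 SD in all 3 pairs on every day.

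**Figure D3:**
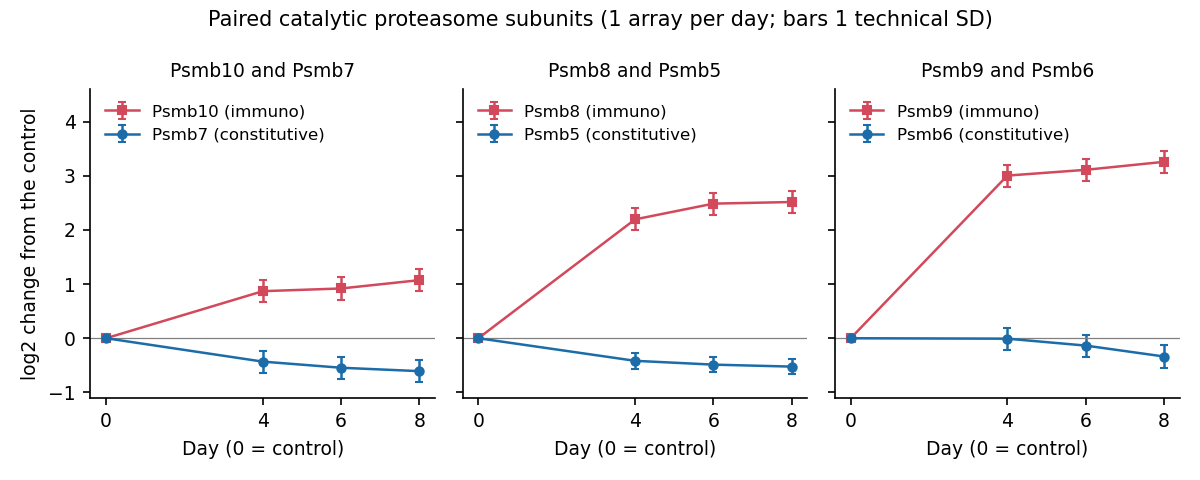
Log2 change from the CMP control (vertical axis) by day (horizontal axis) for each immunoproteasome subunit and the constitutive subunit it replaces, with 1 array per day and bars of 1 technical SD. The immunoproteasome subunit lies above 0 and its partner at or below 0 in all 3 panels, with a gap at day 8 of 1.68 for Psmb10 and Psmb7, 3.04 for Psmb8 and Psmb5, and 3.59 for Psmb9 and Psmb6.

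The rest of the proteasome showed no change of that size. The 11 other core subunits had a median change of -0.32 at day 8 and the 18 subunits of the regulatory particle, which unfolds substrates, one of -0.50. None of these 29 genes was 2-fold higher or lower at day 8, beside 14.3% and 10.5% of all genes. The largest falls, Psmd13 at -0.95 ± 0.20 and Psmd8 at -0.92 ± 0.20, lay just under 2-fold. With quantile normalization the medians were -0.05 and -0.29. The 9 activators and assembly factors had a median of -0.01, with none past 2-fold either way, beside the same shares of all genes. Among them, the PA28 subunit Psme1, an interferon-inducible activator, changed by 0.98 ± 0.06 at day 8, and its partner Psme2 by -0.09 ± 0.12. The single genes of this paragraph were named after their values had been seen.

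Nlrc5 encodes the transactivator of class I genes, and its probes did not give the same result. The brighter probe, at chr8:97051105-97051164, gave 81.1 in the CMP control, then 563 on day 4, 937 on day 6 and 679 on day 8, with log2 changes of 2.80, 3.47 and 2.99 (each ± 0.21). The dimmer probe, in 2 parts between chr8:97030478 and chr8:97030624, gave 14.1, 22.9, 17.8 and 18.8, with log2 changes of 0.70 ± 0.35, 0.27 ± 0.38 and 0.34 ± 0.36. The mean of both probes changed by 1.75 ± 0.20, 1.87 ± 0.22 and 1.66 ± 0.21, and by the brighter probe alone the day 8 change was 2.99. At days 6 and 8 the dimmer probe lay within 1 SD of the control, so only the brighter probe showed a direction on those days, and the sizes differed beyond the errors. At day 6 the change of the brighter probe was above that of Psmb9 (3.11 ± 0.20), but by less than 2 SD. The highest signal was on day 6 for the brighter probe and on day 4 for the dimmer one.

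In order of the day 8 change they were Psmb9, H2-K1, Psmb8, H2-D1, Nlrc5, Tapbp, Psmb10, B2m, Tap1 and Tap2. Of the 9 neighboring pairs in that order, only Psmb9 and H2-K1 (0.59 ± 0.23) and Psmb8 and H2-D1 (0.59 ± 0.29) differed by over 2 SD. All 10 members had reached at least 60% of their log2 change at day 8 by day 4, from 63.3% for Tap2 to 105% for Nlrc5. By the mean of their probes, none differed between day 6 and day 8 by over 2 SD. Of the single probes, the brighter H2-K1 probe was higher at day 8 than at day 6 by 0.16 ± 0.06. The brighter Nlrc5 probe changed by -0.48 ± 0.20 between the same days. Between day 4 and day 8 none changed by 2-fold, while 5.35% of all genes were at least 2-fold higher and 3.67% at least 2-fold lower at day 8 than at day 4. Of the members, 8 had their highest signal at day 8, and Tap1 and Nlrc5 at day 6.

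Of the 10 members, 7 lie in the MHC region of chromosome 17, between the Tapbp and H2-D1 probes (chr17:34065963-35403945 on mm9, 1338 kb). The 7 had a median change of 1.92 at day 8, and 5 were at least 2-fold higher. The 82 other measured genes of that stretch had a median of -0.04, with 11 (13.4%) at least 2-fold higher and 4 at least 2-fold lower, beside 14.3% and 10.5% of all genes. The other genes at least 2-fold higher included the class I gene H2-K2 at 2.51 and the complement genes Cfb at 4.46, C2 at 4.15 and C4b at 2.00, named after their values had been seen.

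Psmb9, Tap1, Psmb8 and Tap2 were consecutive measured genes in this stretch, and their changes alternated in size. At day 8 they were 3.26, 0.94, 2.51 and 0.69 in this order. Psmb9 and Tap1 are read in opposite directions from start sites with 225 bases between them, and that stretch (chr17:34187331-34187555 on GRCm38.p6, written on the strand of Tap1) is shown for that reason, with a CCAAT box and a CRE core in capitals.
Tap1 to Psmb9: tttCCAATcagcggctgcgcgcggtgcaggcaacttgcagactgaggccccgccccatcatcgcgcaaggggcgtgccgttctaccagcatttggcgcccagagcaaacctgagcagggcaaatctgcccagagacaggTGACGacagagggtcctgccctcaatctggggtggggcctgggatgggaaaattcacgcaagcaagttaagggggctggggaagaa
The change of Psmb9 was larger than that of Tap1 by 2.04, 2.05 and 2.31 (each ± 0.21) on days 4, 6 and 8. The change of Psmb8 was larger than that of Tap2 by 1.82 ± 0.29 at day 8.

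**Figure D4:**
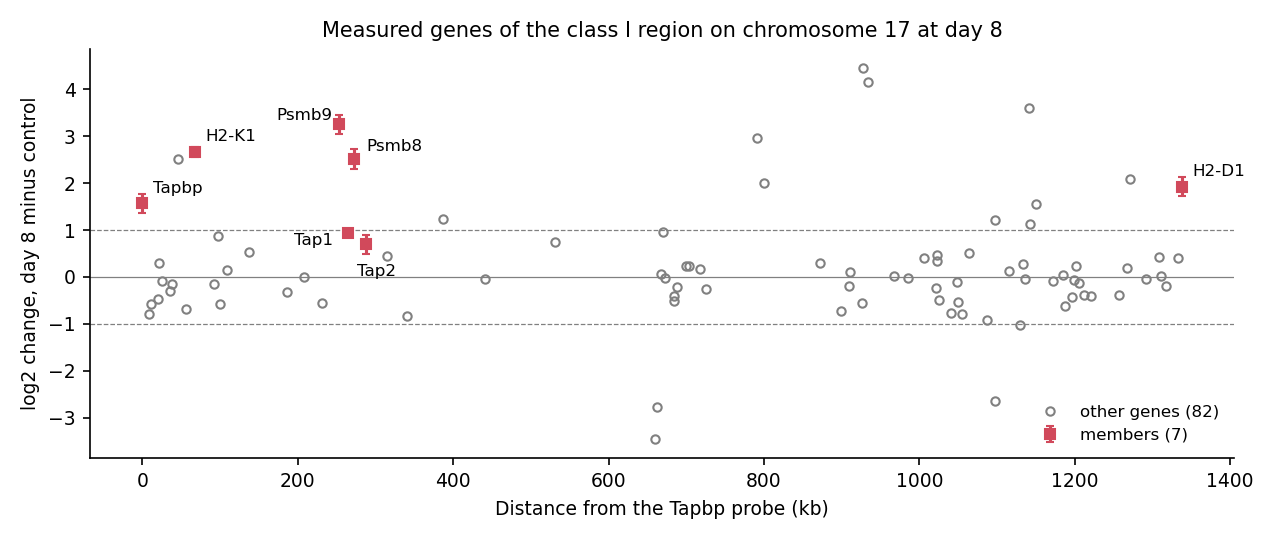
Log2 change at day 8 (vertical axis) against the distance in kb from the Tapbp probe (horizontal axis) for the 7 members (squares, bars of 1 technical SD) and the 82 other measured genes (circles) of the MHC region on chromosome 17, with dashed lines at 2-fold. The members lie between 0.69 and 3.26 and the other genes scatter around a median of -0.04.

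Other heavy chains and class I-like genes were higher as well. Of 18 on the array, 16 were measured, with a median change of 2.21 at day 8. Of the 16, 12 were at least 2-fold higher and none at least 2-fold lower, beside 14.3% and 10.5% of all genes. H2-Q8 went from a signal of 126 in the CMP control to 1679, 2005 and 2885 at days 4, 6 and 8, a change of 4.44 ± 0.21 at day 8. Cd1d1, which presents lipids to NKT cells, changed by 2.96 ± 0.15, H2-T24 by 2.92 ± 0.20 and H2-Bl by 2.43 ± 0.20. Cross-hybridization between these near-identical genes could not be told apart from a change of each. The genes that did not reach 2-fold were H2-M3, the neonatal Fc receptor Fcgrt, the presenter of vitamin metabolites Mr1 and H2-Gs10, with changes between 0.29 and 0.58. The 10 other genes of peptide trimming and loading had a median of 0.20, with none at 2-fold either way, beside the same shares of all genes. Their changes ran from -0.13 ± 0.20 for Sec61a1 to 0.98 ± 0.06 for Psme1, with Tapbpl at 0.92 ± 0.20 and Erap1 at 0.71 ± 0.21. The highest of these lay in the range of the members Tap2, Tap1 and B2m, at 0.69, 0.94 and 0.97. The general chaperones of the endoplasmic reticulum calreticulin (Calr) and calnexin (Canx) changed by 0.10 ± 0.20 and 0.30 ± 0.20. The genes of this list were named after their values had been seen.

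Class II genes, which serve professional antigen-presenting cells, changed in both directions. Of 11 genes on the array 8 were measured, with a median of -0.27 at day 8. By the measured values, 2 of them were at least 2-fold higher and 2 at least 2-fold lower, beside 14.3% and 10.5% of all genes. Cd74, the invariant chain, went from a signal of 13.7 in the control to 132, 312 and 303, a change of 4.38 ± 0.32 at day 8. H2-Eb1 changed by 1.24 ± 0.21. The 2 lower ones were Ciita, the class II transactivator, and the protease Ctss, both well above background only in the control. As bounds, they were at least 1.51-fold and at least 1.92-fold lower at day 8. The bound is set by the dimmest probe well above background on the array.

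Among 28 measured genes that regulate class I transcription, 7 were at least 2-fold higher and 2 at least 2-fold lower at day 8, with a median of 0.09. Of all genes, 14.3% were at least 2-fold higher and 10.5% at least 2-fold lower at that day. Irf7, a transcription factor of the interferon response, went from a signal of 703 in the control to 4140, 4639 and 4731, a change of 2.67 ± 0.20 at day 8. At that day Stat2 changed by 2.20 ± 0.20 and the feedback inhibitor Socs1 by 1.58 ± 0.20. Irf8 was lower by -3.17 ± 0.23 and Socs3 by -2.17 ± 0.20. On none of the 4 arrays was Ifng, the gene of interferon-γ, well above background. Ifnb1, which encodes interferon-β, was not well above background in the control and had signals of 577, 818 and 1255 at days 4, 6 and 8, at least 114-fold higher at day 8. Of 25 interferon-stimulated genes 23 were at least 2-fold higher at day 8, beside 14.3% of all genes, with a median of 1.98. Among those well above background in the control and at day 8, the largest changes were those of Mx1 at 6.58 ± 0.25, Rsad2 at 4.85 ± 0.20, Cmpk2 at 3.63 ± 0.14 and Ifit1 at 3.53 ± 0.20. Cxcl10, dim in the control, was at least 83.6-fold higher at day 8.

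**Figure D5:**
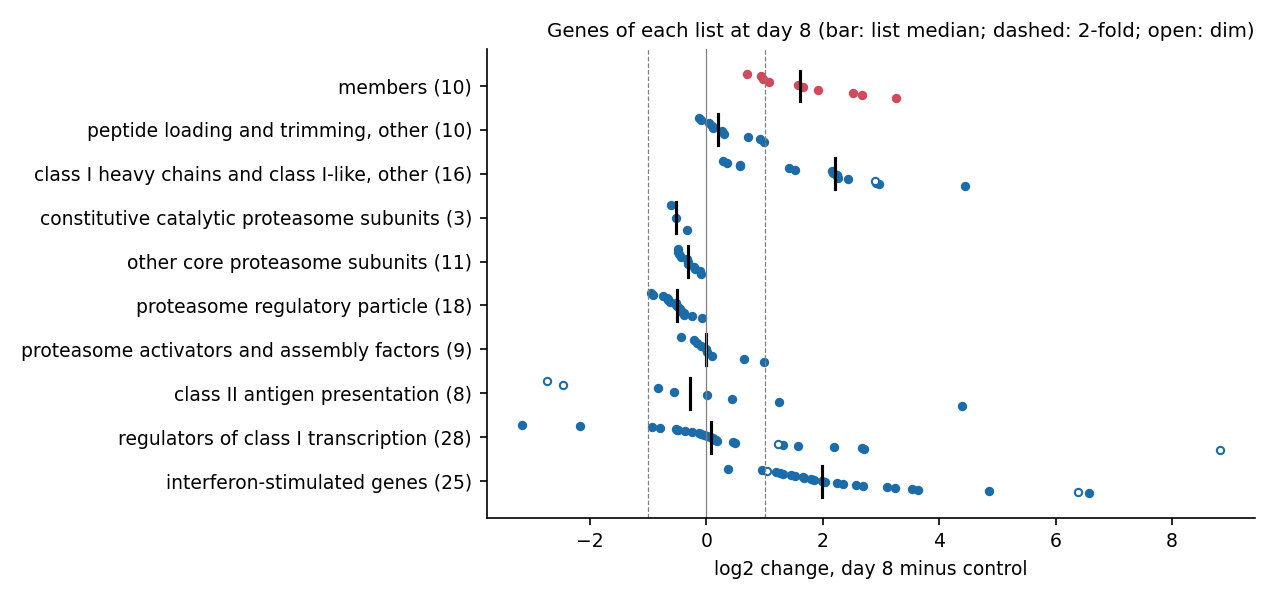
Log2 change at day 8 (horizontal axis) of the measured genes of each list (rows, number of genes in brackets), with bars for the list medians and dashed lines at 2-fold. Open circles mark genes too dim to stand well above background in the control or at day 8, so their position is uncertain. The members have a median of 1.62 beside 2.21 for other class I genes, 1.98 for interferon-stimulated genes and -0.50 for the regulatory particle of the proteasome.

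The genes whose 3 changes lay nearest to the medians of the members, among 18784 candidates, were Baiap2, Sulf2, Bst2, Plag1 and an unnamed transcript, at Euclidean distances of 0.036 to 0.106 on the log2 scale. Bst2 (tetherin), itself an interferon-stimulated gene, changed by 1.45, 1.71 and 1.67, and Baiap2 by 1.44, 1.70 and 1.63. The likeness rests on 3 differences that share 1 control array.

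Markers of other cell types are given as sums of signals over the measured genes of a list, which depend on the probes and are compared only between arrays. The sum of the 5 measured leukocyte markers of 6 on the array was 215 in the control and 247 to 303 later. At day 8, 1 of these was at least 2-fold higher and 1 at least 2-fold lower, beside 14.3% and 10.5% of all genes. Coro1a, an actin-binding protein of leukocytes, went from 39.9 in the control to 91.6 at day 8 (1.12 ± 0.23). Tyrobp was well above background only in the control, at 15.5, and was at least 1.57-fold lower at day 8. Ptprc (CD45) was at 14.8 in the control and 15.8 at day 8, and on no array was Laptm5 well above background. The sum of 5 macrophage and dendritic cell markers of 8 was 627 in the control and 515 to 596 later. Lyz2 changed by -2.58 ± 0.25, Csf1r by -0.73 ± 0.14, Emr1 by -0.83 ± 0.31 and Cd14 by 0.40 ± 0.21 at day 8. Cd68 was at least 2.96-fold higher at day 8, and Cx3cr1, Itgax and Mrc1 were not well above background on the 4 arrays. The sum of 5 lymphocyte markers of 9 was 1196 in the control and 1264 to 1404 later, most of it from Cd3e and Nkg7, with a median change of 0.13 at day 8. None of them was at least 2-fold higher at day 8, and Ms4a1, dim on the later arrays, was at least 2.28-fold lower.

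The 7 endothelial markers had a sum of 765 in the control and 453 to 503 later. At day 8, 4 of them were at least 2-fold lower and none at least 2-fold higher, beside 10.5% and 14.3% of all genes. Their median change of -2.32 is the value of Tie1, which was dim at day 8 and at least 2.06-fold lower. Of the 7, Tek changed by -2.70 ± 0.27 and Cdh5 was at least 11.9-fold lower. The markers that did not reach 2-fold were Pecam1 at 0.10 ± 0.16, Kdr at -0.27 ± 0.11 and Vwf at 0.78 ± 0.25. Kdr, at a signal of 343, made up most of the sum at day 8. Of 4 measured cardiomyocyte markers, 3 were at least 2-fold higher and 1 at least 2-fold lower at day 8, beside 14.3% and 10.5% of all genes. Myl2 was higher at 1.65 ± 0.27, with a signal of 17.6 in the control and 58.3 at day 8. Myh6 and Tnni3 were dim in the control, and at least 1.75-fold and 3.28-fold higher at day 8. Tnnt2, a cardiac troponin, was lower at -1.60 ± 0.20. The 7 mesenchymal markers had a median change of -0.23 at day 8. Among them, Ly6a, which encodes Sca-1, was higher at 2.69 ± 0.20 and Thy1 was lower at -1.78 ± 0.20. The 7 adipocyte markers were all at least 2-fold higher at day 8, beside 14.3% of all genes. Their summed signal was 2950 in the control and 160089 at day 8. Only 3 of them were well above background in the control, and the others passed the filter by the OSKM-CMP arrays alone. Of the 3, Fabp4 changed by 5.78 ± 0.20, Pparg by 3.84 ± 0.06 and Lpl by 3.80 ± 0.14. The median change of 10.29 over the 7 is the value of Plin1, which was dim in the control and at least 645-fold higher at day 8. What part these markers had in the values of the members was not tested.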

How the data were processed

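RNA of 4 samples was measured on Agilent mouse arrays. The authors deposited Feature Extraction output (10.7.3.1 by the file headers, 9.5.3 by the submitters' processing notes) with a background-subtracted Cy3 intensity per spot, and a table of log2 values normalized in GeneSpring, which was used as an alternative. Of 62976 spots, 3671 control spots and outlier spots were left out. Log2 intensities were averaged per probe, the array's 75th percentile was subtracted, and a probe (35540 of 55675) was kept if any array had it well above background, and averaged per gene name. A bound for a dim probe uses the dimmest probe well above background on that array. A gene was called at 2-fold by its measured values, dim ones included. Probe positions are on mm9, without annotation of exons. Promoters are RefSeq windows on GRCm38.p6, from 250 bases before to 50 after a start site, with motifs searched on both strands. The members, 16 gene lists and motifs were chosen with earlier results of these data known. The genes named are the members, the constitutive subunits, for each other list up to 4 genes with the largest rise and up to 2 with the largest fall of at least 2-fold at day 8, and the 5 genes nearest to the members' medians. One gene that this rule names is not reported here. Others named were chosen after their values were seen. The procedure was tested on simulated data. Python 3.11.15, numpy 2.4.6, pandas 2.3.3, R 4.3.3 and limma 3.58.1 were used.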

Additional observations from a re-analysis of the deposited data

How the results depend on the processing

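No paired analysis was possible because every condition was measured on a single array, which also left no replicate to leave out. The errors given cover the spots of an array only, and dim probes have wider errors (Cd74, ± 0.32) than the typical gene (± 0.20). No member's change turned its direction under the 9 alternatives run on single members. With quantile normalization, the median of the members was 1.51 at day 4, the difference of Psmb9 and Psmb6 3.30 at day 8, and the day 8 medians were 0.44 for peptide loading and trimming, 2.41 for other class I genes, and -0.29, -0.050 and -0.29 for the constitutive catalytic, other core and regulatory subunits. With normexp background correction and quantile normalization, the members' median was 1.27 at day 4 and 1.49 at day 6, the difference of Psmb9 and Psmb6 2.71, 2.81 and 3.14 at days 4, 6 and 8, and the day 8 medians 0.34, 1.83, -0.29, -0.049 and -0.30 for the lists in the order above, 0.085 for activators and assembly factors and -0.16 for class II. Without a filter on dim probes, which brings the dim Psmb9 probe into the mean, that difference was 1.40, 2.13 and 2.52, and the day 8 medians were 1.84 for other class I genes and -0.094 for class II. The class II median was 0.0058, with its sign turned, over genes well above background on all 4 arrays. With the brightest probe per gene the members' median was 1.75 at day 8. At a fold threshold of 4, 3 members were called on each day. The share of all genes past that threshold is not given here, so this count cannot be read as high or low. The other lettering of the ISRE core, added after seeing the data, was in 2 members in place of 1. Scaling by the array median moved the median of all genes by -0.14, -0.13 and -0.27 at days 4, 6 and 8, and changes under it are relative to that shift. The causes of these differences were not tested.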
